A study of Mus musculus with 6 samples.

Results

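Phase II enzymes join a small polar group to drugs, hormones, bile pigments and reactive by-products of metabolism, so that these compounds dissolve in water and can be carried into urine or bile. Genes were chosen by their symbols: the glutathione transferases of the Gsta, Gstk, Gstm, Gsto, Gstp, Gstt and Gstz families, the microsomal Mgst genes, the UDP-glycosyltransferases (Ugt) and the cytosolic sulfotransferases (Sult). The rule found 62 genes among 40993 in the table, namely 24 glutathione transferases, 21 UDP-glycosyltransferases and 17 sulfotransferases. Averaged over all 6 libraries, 40 of the 62 reached 0.5 FPKM, and these were tested.

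The kidneys came from C57BL/6 mice that were 2 months old, on an adenine-enriched diet (3 libraries) or a standard diet (3 libraries). Whole organs were used, so every value is a mixture of nephron segments, vessels, stroma and blood cells. Adenine in excess is oxidised to a poorly soluble product that precipitates in tubules, and feeding it is a widely used rodent model of crystal kidney injury. The labels give neither the adenine content of the chow nor the length of feeding, and they state neither the number of mice nor that each library is a separate animal, so p-values measure the spread between these libraries, which may be technical. The libraries are called adenine 1 to 3 and standard 1 to 3. Levels are FPKM, fragments scaled by transcript length and library depth, and can therefore be compared between genes.

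Glutathione transferases attach glutathione to electrophiles, and the product is trimmed and acetylated to a mercapturate, much of it in the kidney. UDP-glucuronosyltransferases of the endoplasmic reticulum add glucuronate from UDP-glucuronate, and sulfotransferases add sulfate from the donor PAPS. The proximal tubule carries out most of the kidney's conjugation and also secretes the conjugates. The antioxidant regulator Nrf2, the aryl hydrocarbon receptor and hepatocyte nuclear factor 1 (HNF1) are known to act on promoters of many of these genes.

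Depth, estimated from the spacing of low FPKM values, was 17.5 to 23.5 M fragments in the adenine libraries and 17.3 to 20.2 M in the standard libraries, and 3 fragments on a 2 kb transcript are worth at most 0.0867 FPKM. The tissue label was checked against markers. All 12 proximal tubule markers were measured, and their summed level was 1180, 1796 and 2642 FPKM in adenine 1, 2 and 3, against 3250, 3922 and 4107 FPKM in standard 1, 2 and 3. Of these markers 7 were lower on adenine and none higher by limma (9 and none at an unadjusted p under 0.05), while 5 of 5 injured tubule, 8 of 8 fibroblast and 6 of 9 leukocyte markers were higher. The 5 injured tubule markers summed to 334 to 787 FPKM on adenine and 10.2 to 14.5 FPKM on the standard diet, the fibroblast markers to 726 to 1359 FPKM on adenine and 144 to 194 FPKM on the standard diet, and the leukocyte markers to 173 to 338 FPKM on adenine and 51.4 to 59.7 FPKM on the standard diet. The 6 liver markers summed to 62.4 to 96.5 FPKM on adenine and 67.1 to 84.9 FPKM on the standard diet, with Apob the highest of them at 30.6 to 65.2 FPKM over all libraries. Of the 4 tested liver markers Serpina1a was higher on adenine and Apoa2 lower, while Alb stayed at or below 5.86 FPKM and Ahsg was at 0 in 5 of the 6 libraries. Fewer cells of a type and less RNA per cell cannot be told apart in whole tissue, and the part of these shifts in the results below was not tested.

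With all 6 libraries in the fit, conjugating enzymes were more often lower than higher on the adenine diet. Of the 40 tested genes 13 fell (32.5%), against 6.84% of all 15431 genes tested, and 7 rose (17.5%), against 29.7% of all genes (limma on log2(FPKM + 1), adjusted p under 0.05 over all genes). The other 20 did not pass. The 7 rises include Sult4a1 and Ugt1a1, which averaged under 0.5 FPKM on the standard diet and entered the test through the adenine libraries, as did Mgst2 and Ugt1a2, which were not called. Such genes had to differ to be tested, and 5 rises remain without them. The median log2 difference of the 40 genes, adenine minus standard, was -0.19, beside 0.25 for all tested genes. Median-of-ratios scaling takes out the upward shift of 0.25: it gave 16 lower (40%, against 15.2% of all genes) and 5 higher (12.5%, against 16.8%), and the members' median was -0.44. Of all genes called, 81.3% were higher as deposited and 52.6% after that scaling. In either direction 20 members were called as deposited (36.5% of all genes were), 21 after that scaling (32% of all genes), 13 with quantile normalization (28.4% of all genes; 9 lower against 14.5% and 4 higher against 13.9%) and 20 with the replicate number as a block (38.6% of all genes; 13 lower against 7.34% and 7 higher against 31.3%). In 14 members all 3 adenine libraries lay below all 3 standard libraries (11.8% of all genes did so), and in 9 they lay above (44.4% of all genes). These 9 include Sult4a1, Ugt1a1, Mgst2 and Ugt1a2, which entered the test through the adenine libraries and so had to differ to be counted. With 1 library left out, falls outnumbered rises only without adenine 3 (16 lower and 9 higher). Without adenine 1 there were 7 lower and 7 higher, and without adenine 2 there were 3 and 4. Without standard 1, 2 and 3 there were 3 and 4, 3 and 3, and 4 and 4. Of all 15431 genes, 220 to 1598 were lower and 1833 to 5480 higher in these fits.

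Genes that fell were found in all 3 classes. Of 13 tested UDP-glycosyltransferases 4 fell (30.8%) and 3 rose (23.1%). Of 21 glutathione transferases 7 fell (33.3%) and 3 rose (14.3%), and of 6 sulfotransferases 2 fell (33.3%) and 1 rose (16.7%). Among all genes 6.84% fell and 29.7% rose. The rises include Ugt1a1 and Sult4a1, tested only because of their adenine level. Median-of-ratios scaling gave 4 lower and 2 higher, 9 and 2, and 3 and 1 in that class order, against 15.2% and 16.8% of all genes. The summed level of the UDP-glycosyltransferases was 731, 1112 and 1541 FPKM in adenine 1, 2 and 3, against 2050, 2245 and 2370 FPKM in the standard libraries, a ratio of means of 0.508. The glutathione transferases summed to 981, 1054 and 1280 FPKM on adenine and 1408, 1381 and 1452 FPKM on the standard diet (ratio 0.782). The sulfotransferases summed to 223, 240.1 and 354 FPKM on adenine and 403, 393 and 487 FPKM on the standard diet (ratio 0.637). In each class the groups did not overlap, and adenine 1 was the lowest library and adenine 3 the nearest to the standard kidneys. The summed proximal tubule markers also increased from adenine 1 to adenine 3, but this order was not particular to them. Thick ascending limb markers (3479, 4165 and 4306 FPKM) and distal tubule and collecting duct markers (377, 403 and 458 FPKM) had it too. So had the liver markers (62.4, 68.3 and 96.5 FPKM). Fibroblast and leukocyte markers had the opposite order, and injured tubule markers (707, 787 and 334 FPKM) had neither. Of the 13 genes that fell, 10 were lowest in adenine 1 and 12 highest in adenine 3 among the adenine libraries. For all 1056 genes that fell the shares were 76.4% and 82.3%.

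**Figure D1:**
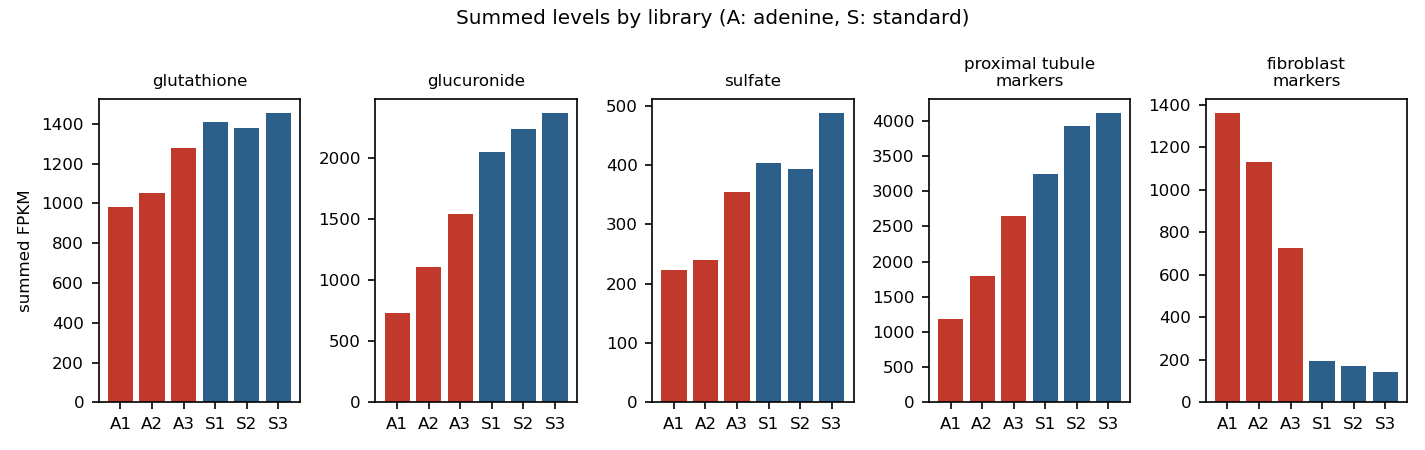
Bars give the summed FPKM of the glutathione, glucuronide (all Ugt genes) and sulfate classes and of the proximal tubule and fibroblast marker lists in each library, adenine (A1 to A3, red) left of standard (S1 to S3, blue). The glucuronide class is between 731 and 1541 FPKM on adenine and between 2050 and 2370 FPKM on the standard diet, and the 2 marker lists lie on opposite sides.

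**Figure D2:**
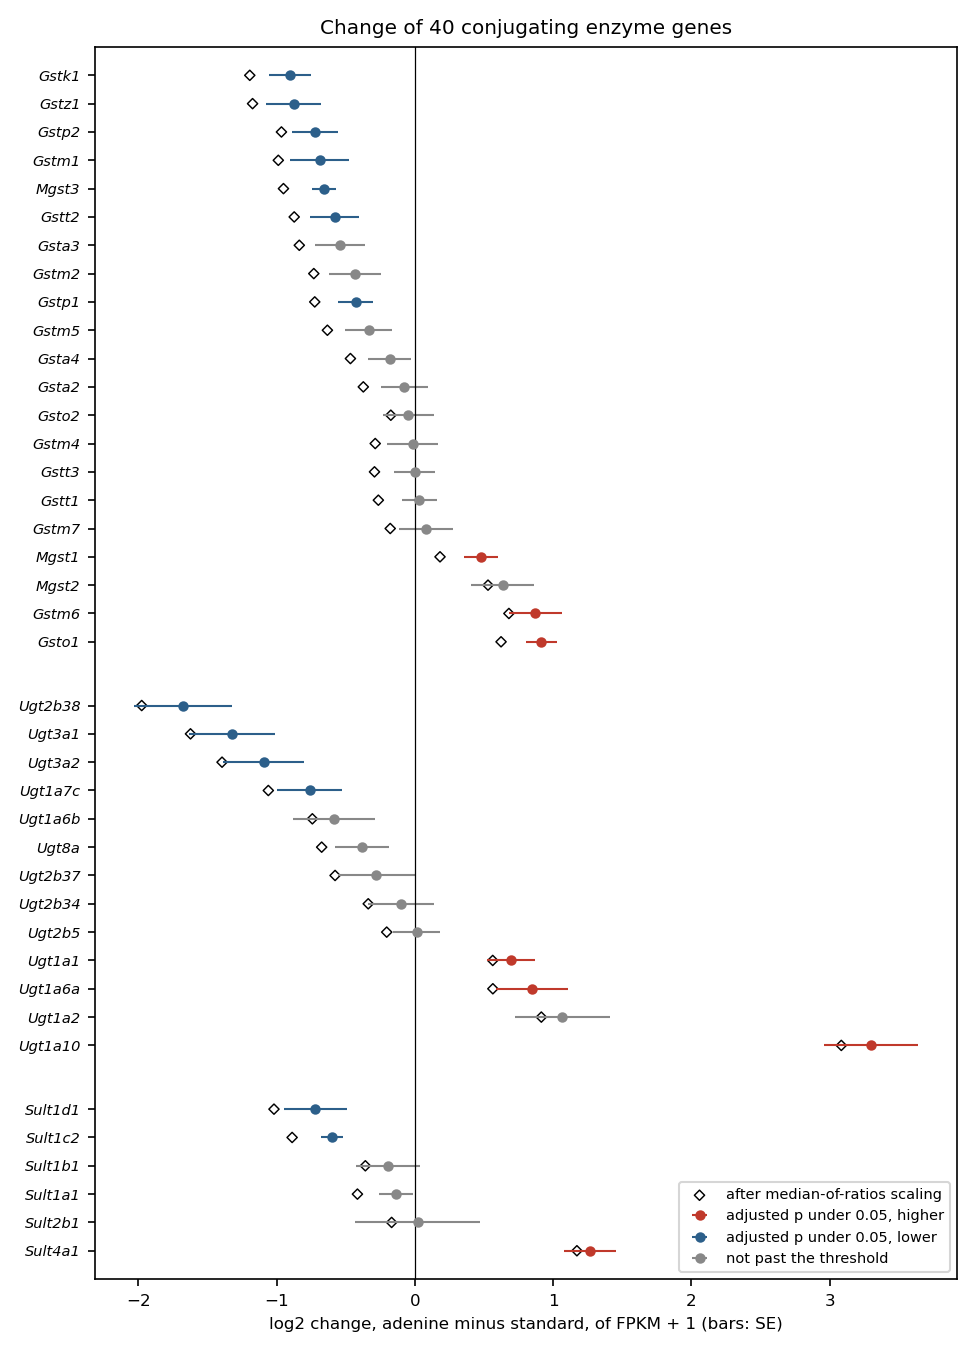
Filled points give the log2 difference, adenine minus standard, of FPKM + 1 for the 40 tested genes with SE bars, red for higher, blue for lower and grey for genes not past adjusted p under 0.05. Open diamonds give the same after median-of-ratios scaling. Ugt1a10 at 3.30 lies farthest to the right and Ugt2b38 at -1.68 farthest to the left.

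The 2 most abundant members, Ugt3a2 and Ugt2b38, were UDP-glycosyltransferases, as were the 3 with the largest log2 falls. Ugt3a2 (chromosome 15, 9335550 to 9370955) led the members; it was at 284, 448 and 629 FPKM in adenine 1, 2 and 3 and at 857, 911 and 1002 FPKM in standard 1, 2 and 3. Every adenine library was below every standard library, and the log2 difference was -1.09 ± 0.291 (SE; limma adjusted p = 0.0297). Its neighbour on chromosome 15, Ugt3a1, was at 86.0, 159 and 201 FPKM on adenine and at 308, 344 and 414 FPKM on the standard diet, a log2 difference of -1.32 ± 0.311 (limma adjusted p = 0.0207). Enzymes of this family, as known from the human ones, use sugars other than glucuronate as donors.

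Ugt2b38 (chromosome 5, 87409942 to 87424203), a member of the Ugt2b cluster, whose enzymes glucuronidate steroids and many drugs, had the largest fall of all members. It was at 87.4, 165 and 249 FPKM on adenine, against 483, 508 and 487 FPKM on the standard diet, with a log2 difference of -1.68 ± 0.353 (limma adjusted p = 0.0154). The standard libraries were nearly level, and the 3 adenine libraries were spread over the range below them. The next abundant gene of the cluster, Ugt2b37, did not pass: it was at 70.8, 106 and 156 FPKM on adenine and 129.9, 146 and 111 FPKM on the standard diet, and the groups overlapped. Ugt2b34 and Ugt2b5 were under 6 FPKM in every library and overlapped as well. Of the 100-base windows of Ugt2b38 transcripts 24.2% also occur in Ugt2b5, so fragments could be divided between these genes. Ugt8a, which makes galactosylceramide, was at 35.6, 36.7 and 48.8 FPKM on adenine and at 41.3, 53.3 and 65.0 FPKM on the standard diet (log2 difference -0.38, limma adjusted p = 0.162, but adjusted p = 0.0377 with the replicate number as a block).

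The calls of Ugt2b38, Ugt3a1 and Ugt3a2 each ended without adenine 2 (limma adjusted p = 0.0552, 0.0597 and 0.0893), without standard 1 (0.0534, 0.0547 and 0.0753), without standard 2 (0.0548, 0.0634 and 0.0839) and without standard 3 (0.0534, 0.0732 and 0.0937, all in that gene order). Quantile normalization ended the call of Ugt3a2 (adjusted p = 0.0802).

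**Figure D3:**
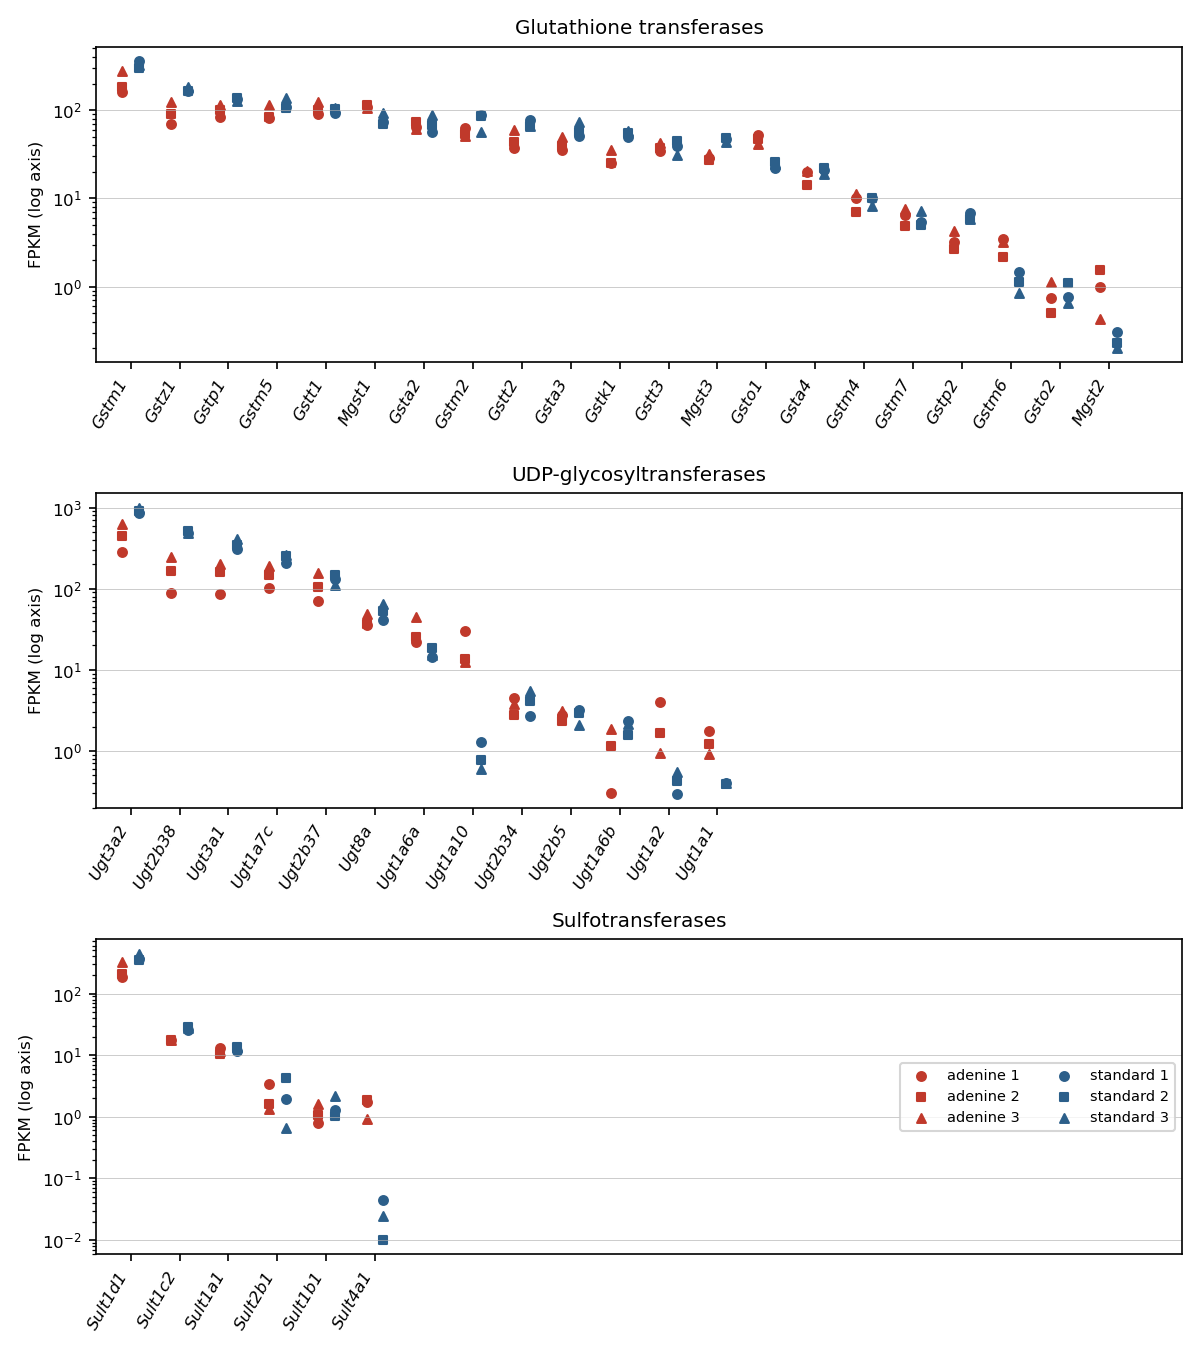
Each point is 1 library's FPKM on a log axis for the 40 tested genes, grouped by class and ordered by mean level, with adenine (red) left of standard (blue) and the symbol giving the library number. The value 0 of Sult4a1 in standard 2 is drawn at 0.01. Ugt3a2 and Ugt2b38 head the middle panel, and Ugt1a10 is the gene there whose groups lie farthest apart.

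The Ugt1 locus on chromosome 1 (88055388 to 88220002 from the start of Ugt1a10 to the end of Ugt1a7c, GRCm38) had a different mix of transcripts on the 2 diets. It holds a row of alternative first exons, each with its own promoter, spliced to common last exons, so that each promoter yields an enzyme with its own substrate-binding part. Ugt1a10 and Ugt1a7c, neighbours among the called genes of the locus, went in opposite directions, as did Ugt1a7c and Ugt1a6a. The 300 bases around the start of these genes and of Ugt1a1 are shown because these separate promoters are what tells the locus's products apart; capitals mark matches to the HNF1 core motif GTTAAT on either strand (RefSeq, GRCm38.p6, each read in the direction of transcription).
Ugt1a10 promoter, chr1:88055161-88055460, plus strand: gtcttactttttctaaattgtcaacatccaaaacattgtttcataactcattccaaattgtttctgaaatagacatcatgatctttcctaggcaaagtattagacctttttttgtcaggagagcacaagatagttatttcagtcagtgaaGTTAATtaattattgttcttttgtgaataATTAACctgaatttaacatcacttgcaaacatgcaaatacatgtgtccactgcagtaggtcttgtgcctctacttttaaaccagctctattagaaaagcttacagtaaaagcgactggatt
Ugt1a6a promoter, chr1:88134559-88134858, plus strand: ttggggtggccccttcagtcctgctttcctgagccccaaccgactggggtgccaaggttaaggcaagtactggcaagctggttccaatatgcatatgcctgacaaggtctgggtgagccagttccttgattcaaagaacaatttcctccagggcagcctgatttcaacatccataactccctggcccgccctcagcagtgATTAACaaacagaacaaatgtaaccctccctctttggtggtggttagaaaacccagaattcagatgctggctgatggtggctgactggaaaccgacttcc
Ugt1a1 promoter, chr1:88211709-88212008, plus strand: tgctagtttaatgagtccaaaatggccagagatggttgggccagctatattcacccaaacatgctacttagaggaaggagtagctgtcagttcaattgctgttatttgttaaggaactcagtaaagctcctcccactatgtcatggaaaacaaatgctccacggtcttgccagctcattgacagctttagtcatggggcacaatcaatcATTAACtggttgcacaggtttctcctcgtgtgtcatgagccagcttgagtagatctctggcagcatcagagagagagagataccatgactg
Ugt1a7c promoter, chr1:88094751-88095050, plus strand: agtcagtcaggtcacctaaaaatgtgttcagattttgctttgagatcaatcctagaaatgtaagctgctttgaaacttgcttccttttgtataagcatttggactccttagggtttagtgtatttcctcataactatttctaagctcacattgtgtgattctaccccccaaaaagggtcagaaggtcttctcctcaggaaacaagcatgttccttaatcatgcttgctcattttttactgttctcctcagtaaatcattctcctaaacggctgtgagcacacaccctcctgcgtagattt

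Ugt1a10 rose more than any other member. It was at 30.2, 13.6 and 12.5 FPKM in adenine 1, 2 and 3 and at 1.29, 0.773 and 0.597 FPKM in standard 1, 2 and 3. The means differed 21.2-fold and the log2 difference was 3.30 ± 0.339 (limma adjusted p = 0.00402). Ugt1a6a, which conjugates small planar phenols, was at 22.1, 25.4 and 44.8 FPKM on adenine, against 14.3, 18.4 and 15.0 FPKM on the standard diet (log2 difference 0.85 ± 0.26, limma adjusted p = 0.0438). Ugt1a1, the bilirubin-conjugating enzyme, was at 1.78, 1.20 and 0.913 FPKM on adenine, against 0.407, 0.393 and 0.405 FPKM on the standard diet (log2 difference 0.70 ± 0.174, limma adjusted p = 0.025), and was tested only because of its adenine level. In all 3 genes the lowest adenine library was above the highest standard library.

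Ugt1a7c, a phenol-conjugating enzyme and the main product of the locus, fell. It was at 101, 147 and 189 FPKM on adenine and at 206, 254 and 264 FPKM on the standard diet, without overlap (log2 difference -0.76 ± 0.236, limma adjusted p = 0.0455). Its share of the summed FPKM of the locus was 63.2%, 77.1% and 75.6% in adenine 1, 2 and 3, against 91.7%, 92.2% and 93.4% in standard 1, 2 and 3. The share of Ugt1a10 was 18.9%, 7.13% and 5.01% on adenine and at most 0.576% on the standard diet, and that of Ugt1a6a was 13.3% to 17.9% on adenine and 5.32% to 6.66% on the standard diet. These shares are a description and were given no test. The sum over the locus overlapped between the diets, with 160, 191 and 250.1 FPKM on adenine and 224, 276 and 282 FPKM on the standard diet.

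Ugt1a2 was at 4.06, 1.65 and 0.956 FPKM on adenine and at 0.296, 0.422 and 0.548 FPKM on the standard diet; the groups did not overlap, but the test was not passed (log2 difference 1.07, limma adjusted p = 0.0504). Ugt1a6b was at 0.302, 1.15 and 1.84 FPKM on adenine and 2.33, 1.58 and 2.12 FPKM on the standard diet, with overlap (log2 difference -0.58, limma adjusted p = 0.16). The 9 Ugt1a genes share 3 exons, and between 50.4% and 70.9% of the 100-base windows of the 6 tested ones occur in another gene, so the division of fragments among them rests on their first exons and on the authors' estimate. The 3 remaining genes of the locus, Ugt1a5, Ugt1a8 and Ugt1a9, averaged under 0.5 FPKM over the 6 libraries.

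Among the Ugt1 calls, that of Ugt1a10 held without each of the 6 libraries. That of Ugt1a7c ended without adenine 1 or 2 (limma adjusted p = 0.0746 and 0.111) and without standard 1, 2 or 3 (0.0747, 0.124 and 0.13). Those of Ugt1a6a and Ugt1a1 ended without adenine 2 (0.0858 and 0.0718), standard 1 (0.122 and 0.0668), standard 2 (0.0787 and 0.0694) and standard 3 (0.119 and 0.0692). Ugt1a6a was not called after median-of-ratios scaling (0.178) or quantile normalization (0.163), Ugt1a1 (0.115) and Ugt1a7c (0.0982) not after quantile normalization.

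**Figure D4:**
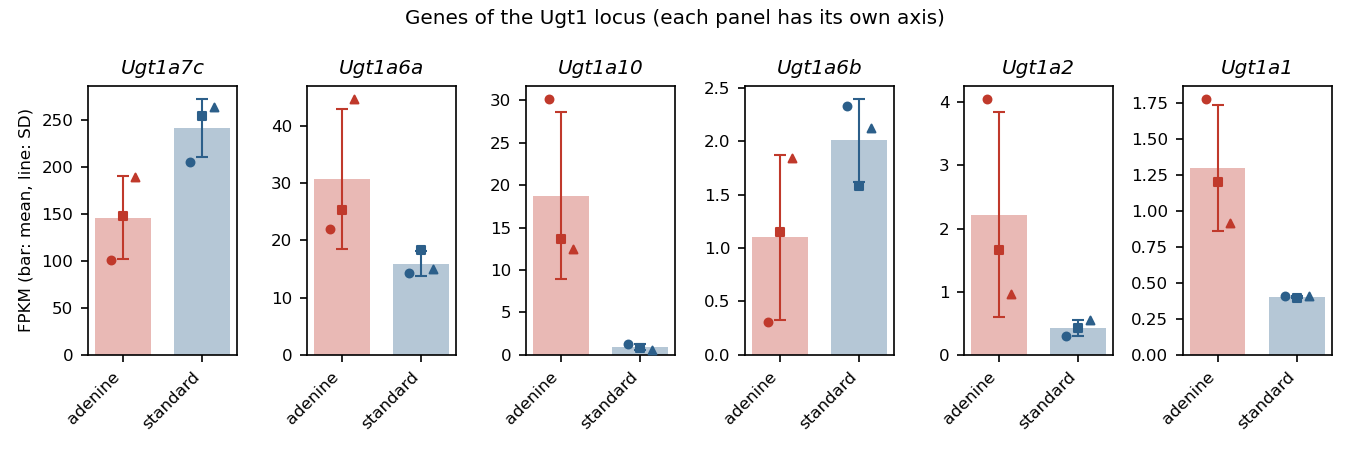
Bars give mean FPKM with SD lines for the 6 tested genes of the Ugt1 locus, adenine left of standard, and symbols give the libraries (circle 1, square 2, triangle 3). Each panel has its own linear axis from 0. Ugt1a7c is lower on adenine, while Ugt1a6a, Ugt1a10 and Ugt1a1 are higher, with the adenine libraries of Ugt1a10 spread from 12.5 to 30.2 FPKM.

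Motif matches were counted in 300-base promoters, from 250 bases before to 50 after the start, on both strands. RefSeq promoters were found for 54 of the 62 members, and 51 of them started within 1000 bases of the start in the table. The HNF1 core motif GTTAAT occurred in 12 of the 51, against 7.1% of all 32851 RefSeq promoters. Among the 12 were Ugt1a10, Ugt1a6a and Ugt1a1, which are 3 of the 6 rising genes with a promoter. Of the 10 falling genes with a promoter 1 held it, Sult1d1. The 3 rising genes with it belong to 1 locus, and Ugt1a1 was tested only because of its adenine level. Ugt1a6a was not called after median-of-ratios scaling (limma adjusted p = 0.178). Whether the motif goes with the direction of change was not tested. The letters TGACNNNGC, a form of the antioxidant response element, bound by Nrf2, occurred in 3 of the 51 (Gsta3, Gstm5 and Mgst1), against 12.4% of all promoters. No other form was searched. The promoters of Gstp1 and Gstp2, which fell, hold TGAGTCAGC, with G in place of C, and were not counted. The core GCGTG of the xenobiotic response element, bound by the aryl hydrocarbon receptor, occurred in 10 of the 51 and in 4 of the 10 falling genes, against 32.4% of all promoters. Matches of different motifs overlapped in 1 member promoter. These are matches of letters and were not measured as bound sites.

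Among glutathione transferases other than the microsomal ones, the falls were moderate and spread over several families. Gstk1 (chromosome 6, 42245935 to 42250441), the mitochondrial and peroxisomal kappa enzyme, was at 25.0, 25.5 and 35.4 FPKM on adenine and at 49.2, 54.5 and 57.6 FPKM on the standard diet (log2 difference -0.90 ± 0.15, limma adjusted p = 0.00852). Gstz1, the maleylacetoacetate isomerase of tyrosine breakdown, was at 70.0, 91.3 and 123 FPKM on adenine, against 165, 165 and 182 FPKM on the standard diet (log2 difference -0.88 ± 0.2, limma adjusted p = 0.0191). Neither gene's groups overlapped, and adenine 3 was in both the library nearest to the standard kidneys.

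The mu family, a cluster on chromosome 3, was divided. Gstm1, its most abundant member, was at 162, 181 and 279 FPKM on adenine and at 357, 301 and 322 FPKM on the standard diet (log2 difference -0.69 ± 0.214, limma adjusted p = 0.0458; adjusted p = 0.0537 with the replicate block). Gstm6, the nearest called gene of the cluster, rose: it was at 3.48, 2.16 and 3.17 FPKM on adenine, against 1.46, 1.12 and 0.857 FPKM on the standard diet (log2 difference 0.87 ± 0.191, limma adjusted p = 0.0172). In both genes the groups were apart, in opposite directions. Gstm2 was at 62.2, 54.1 and 50.6 FPKM on adenine and 88.5, 85.8 and 56.1 FPKM on the standard diet, which overlapped through standard 3 and did not pass (limma adjusted p = 0.111, and 0.0189 with median-of-ratios factors). Gstm5, at 82.4 to 115 FPKM on adenine and 106 to 138 FPKM on the standard diet, passed with the replicate block (adjusted p = 0.0366) and not without it (0.156), and Gstm4 and Gstm7 overlapped between the diets.

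The pi genes Gstp1 and Gstp2 lie side by side on chromosome 19 and both fell. Gstp1 was at 83.2, 101 and 113 FPKM on adenine and 133, 138 and 126 FPKM on the standard diet (log2 difference -0.43 ± 0.127, limma adjusted p = 0.0404; adjusted p = 0.0539 with the replicate block). Gstp2 was at 3.22, 2.67 and 4.26 FPKM on adenine and 6.81, 5.82 and 5.88 FPKM on the standard diet (log2 difference -0.72 ± 0.165, limma adjusted p = 0.0192). Neither pair of groups overlapped. Of the windows of Gstp2 46.9% occur in another gene, mostly Gstp1, whose level was far higher, so the value of Gstp2 is uncertain.

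In the theta family, whose enzymes act on small halogenated compounds, Gstt2 fell: it was at 37.4, 43.7 and 60.2 FPKM on adenine and 76.5, 66.1 and 66.2 FPKM on the standard diet (log2 difference -0.58 ± 0.177, limma adjusted p = 0.0442; adjusted p = 0.0637 with the replicate block). Gstt1, of the same cluster, was at 90.4, 101 and 122 FPKM on adenine and 93.8, 104 and 106 FPKM on the standard diet. These groups overlapped, and the log2 difference of 0.03 became -0.26 after median-of-ratios scaling; Gstt3, at 34.5 to 42.8 FPKM on adenine and 31.4 to 44.6 FPKM on the standard diet, overlapped too. In the alpha family Gsta3 was at 35.0, 39.2 and 49.5 FPKM on adenine and 51.0, 57.1 and 73.8 FPKM on the standard diet. Its groups did not overlap, yet it did not pass (log2 difference -0.54, limma adjusted p = 0.0537), though it did with the replicate block (adjusted p = 0.0115) and after median-of-ratios scaling (0.0326). Gsta2, the most abundant alpha gene, was at 64.6, 73.3 and 61.8 FPKM on adenine and 56.9, 68.3 and 88.6 FPKM on the standard diet, with overlap, and Gsta4, which removes lipid peroxidation aldehydes, overlapped too.

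Gsto1 (chromosome 19, 47854970 to 47864790), the omega enzyme, which reduces dehydroascorbate and mixed disulfides and does little classical conjugation, rose. It was at 51.7, 46.6 and 41.3 FPKM on adenine, against 22.1, 25.8 and 24.5 FPKM on the standard diet, and no library of one diet entered the range of the other (log2 difference 0.91 ± 0.111, limma adjusted p = 0.00483). Adjacent Gsto2 was at 0.504 to 1.13 FPKM on adenine and at 0.657 to 1.10 FPKM on the standard diet, and overlapped. Gsto1 remained called after median-of-ratios scaling (log2 difference 0.62, adjusted p = 0.00835) and quantile normalization (0.00839).

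The microsomal transferases went different ways. Mgst3 (chromosome 1, 167371966 to 167393841), a membrane enzyme related to leukotriene C4 synthase, was at 28.7, 27.3 and 31.5 FPKM on adenine, against 47.4, 48.5 and 43.8 FPKM on the standard diet (log2 difference -0.66 ± 0.0886, limma adjusted p = 0.00592). Mgst1, a glutathione transferase and peroxidase of the endoplasmic reticulum and the outer mitochondrial membrane, was at 108, 115 and 105 FPKM on adenine, against 73.3, 70.2 and 92.7 FPKM on the standard diet (log2 difference 0.48 ± 0.123, limma adjusted p = 0.0267). Both genes had groups apart, but the rise of Mgst1 shrank to 0.18 after median-of-ratios scaling (adjusted p = 0.388). Mgst2 was at 0.994, 1.53 and 0.434 FPKM on adenine and 0.310, 0.229 and 0.204 FPKM on the standard diet, and did not pass (log2 difference 0.63, limma adjusted p = 0.0668). The promoter of Mgst1 is shown as the 1 of the 16 called genes with such a promoter that holds TGACNNNGC on either strand, in capitals (RefSeq, GRCm38.p6). Other forms of the antioxidant response element were not searched.
Mgst1 promoter, chr6:138140277-138140576, plus strand: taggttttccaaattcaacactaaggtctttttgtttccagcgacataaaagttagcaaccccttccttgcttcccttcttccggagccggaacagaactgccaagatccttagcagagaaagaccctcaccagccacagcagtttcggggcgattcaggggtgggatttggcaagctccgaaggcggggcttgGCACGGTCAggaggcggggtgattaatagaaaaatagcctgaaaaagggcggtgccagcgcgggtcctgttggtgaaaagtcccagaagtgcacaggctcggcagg

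Of the glutathione transferase calls, Gstk1, Mgst3 and Gsto1 held without each library. Without adenine 1 the calls of Gstm1 (limma adjusted p = 0.112), Gstp1 (0.0668), Gstp2 (0.0519), Gstt2 (0.102) and Mgst1 (0.0588) ended. Without adenine 2 these ended too (0.143, 0.103, 0.0708, 0.131 and 0.0955 in that order), as did Gstz1 (0.0687). Without standard 1 the same 6 ended (0.128, 0.101, 0.0684, 0.126, 0.0839 and 0.058), and without standard 2 again (0.0931, 0.116, 0.0564, 0.0953, 0.0847 and 0.0588), along with Gstm6 (0.0566). Without standard 3 Gstm1 (0.112), Gstp1 (0.0852), Gstp2 (0.0547), Gstt2 (0.0973), Gstz1 (0.0672) and Gstm6 (0.057) ended. Quantile normalization ended the calls of Gstm1 (0.104), Gstm6 (0.14), Gstp1 (0.0888) and Gstt2 (0.0526).

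Sulfotransferase transcripts were almost all Sult1d1, which in the mouse sulfates dopamine and other catecholamines. It was at 186, 207 and 321 FPKM on adenine and at 362, 345 and 442 FPKM on the standard diet (log2 difference -0.72 ± 0.226, limma adjusted p = 0.0471). Sult1c2 (chromosome 17, 53829637 to 53846339) was at 17.8, 17.9 and 17.5 FPKM on adenine, against 25.8, 28.5 and 28.0 FPKM on the standard diet (log2 difference -0.60 ± 0.0797, limma adjusted p = 0.00569). Neither gene's groups overlapped, and unlike in most falling members the 3 adenine libraries of Sult1c2 were level. Sult1a1, the general phenol sulfotransferase, was at 13.2, 10.4 and 11.6 FPKM on adenine and 11.7, 13.5 and 13.7 FPKM on the standard diet; these overlapped, and the gene passed only after median-of-ratios scaling (adjusted p = 0.0393) and quantile normalization (0.0293) among the settings tried. Sult1b1 was at 0.794 to 1.61 FPKM on adenine and 1.03 to 2.17 FPKM on the standard diet, with overlap. Sult2b1, which sulfates cholesterol, was at 3.43, 1.60 and 1.35 FPKM on adenine and 1.93, 4.31 and 0.670 FPKM on the standard diet, with wide overlap, and its log2 difference of 0.02 became -0.17 after median-of-ratios scaling.

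Sult4a1 (chromosome 15, 84076097 to 84105754), a sulfotransferase best known from brain and without a well-defined substrate, was higher on adenine. It was at 1.72, 1.86 and 0.926 FPKM in adenine 1, 2 and 3 and at 0.0442, 0 and 0.0245 FPKM in standard 1, 2 and 3 (log2 difference 1.27 ± 0.189, limma adjusted p = 0.00709). All standard values were below what 3 fragments are worth on a 2 kb transcript, so no fold is given, and the gene was tested only because of its adenine level. The calls of Sult4a1 and Sult1c2 held without each library, and that of Sult1d1 ended without adenine 1 or 2 (limma adjusted p = 0.119 and 0.146), without standard 1, 2 or 3 (0.101, 0.0913 and 0.138), and after quantile normalization (0.087).

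The 22 members that were not tested averaged under 0.5 FPKM over the 6 libraries, and 4 of them (Gsta1, Sult6b1, Ugt1a9 and Ugt2a3) exceeded it in at least 1 library. Sult2a1, Sult2a2, Sult2a4, Sult2a5, Sult2a6, Sult2a7, Sult3a1, Ugt2b1 and Ugt2b36 were listed at 0 in every library; several of these are known as liver enzymes. The other 13 were Gsta1, Gstm3, Gstt4, Sult1c1, Sult1e1, Sult2a3, Sult6b1, Ugt1a5, Ugt1a8, Ugt1a9, Ugt2a1, Ugt2a3 and Ugt2b35. Sult6b1 had the value 0.599, 0.387 and 0.186 FPKM on adenine and 0.0525, 0.0965 and 0.0324 FPKM on the standard diet, and was not tested.

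The supply and disposal of the conjugated groups was read from 5 further lists, whose counts stand beside 29.7% higher and 6.84% lower among all genes as deposited, and 16.8% and 15.2% after median-of-ratios scaling. Of 20 tested genes of glutathione supply and mercapturate formation 4 rose (20%) and 2 fell (10%), or 1 (5%) and 6 (30%) with median-of-ratios factors; the median log2 difference was -0.34. Nat8, which acetylates cysteine conjugates to mercapturates, was at 39.4, 54.3 and 101.8 FPKM on adenine and 158, 150.1 and 138 FPKM on the standard diet (log2 difference -1.29, limma adjusted p = 0.0245). Acy1, an aminoacylase, was at 18.2, 21.9 and 43.8 FPKM on adenine and 75.0, 59.7 and 52.8 FPKM on the standard diet (log2 difference -1.22, limma adjusted p = 0.0286). Both lay wholly below the standard range. Dpep2, a dipeptidase, was at 3.53, 1.81 and 1.78 FPKM on adenine and 0.315, 0.318 and 0.232 FPKM on the standard diet (log2 difference 1.35, limma adjusted p = 0.00817). It averaged 0.289 FPKM on the standard diet, so it was tested only because of its adenine level and had to differ to be tested. Ggt5, which cleaves leukotriene C4, averaged 4.94 ± 1.26 FPKM on adenine and 2.81 ± 0.523 FPKM on the standard diet (SD, n = 3 each). Its log2 difference was 0.63 (limma adjusted p = 0.0435, adjusted p = 0.0718 with the replicate block and 0.108 after median-of-ratios scaling).

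Of 11 genes that supply UDP-glucuronate or remove glucuronate 3 rose (27.3%, near the 29.7% of all genes) and none fell by limma as deposited (1 was lower at an unadjusted p under 0.05), but 1 rose (9.09%) and 3 fell (27.3%) after median-of-ratios scaling. The gene listed as Pgm1, on chromosome 5, averaged 13.0 ± 1.51 FPKM on adenine and 5.98 ± 0.857 FPKM on the standard diet (limma adjusted p = 0.00628). The gene listed as Pgm2, on chromosome 4, averaged 33.4 ± 5.44 FPKM on adenine and 41.1 ± 2.61 FPKM on the standard diet. Pgm2 did not pass as deposited (log2 difference -0.30, limma adjusted p = 0.106) and was lower after median-of-ratios scaling (0.0321). The lysosomal glucuronidase Gusb averaged 33.2 ± 5.34 FPKM on adenine and 22.1 ± 4.08 FPKM on the standard diet (limma adjusted p = 0.0398, and 0.154 with median-of-ratios factors). Of 19 genes of sulfate uptake, PAPS supply and sulfatases 5 rose (26.3%) and 2 fell (10.5%), or 4 (21.1%) and 7 (36.8%) after that scaling. The apical sulfate transporter Slc13a1 was at 222, 304 and 249 FPKM on adenine and 94.3, 120 and 172 FPKM on the standard diet (limma adjusted p = 0.0192; 0.0802 after that scaling). The basolateral sulfate exchanger Slc26a1 averaged 21.7 ± 6.08 FPKM on adenine and 34.1 ± 4.54 FPKM on the standard diet and fell (limma adjusted p = 0.0487). Bpnt1, which breaks down the used sulfate donor, averaged 89.2 ± 21.9 FPKM on adenine and 167 ± 15.4 FPKM on the standard diet and fell (limma adjusted p = 0.0146), while the protein-tyrosine sulfotransferase Tpst1 averaged 9.56 ± 3.20 FPKM on adenine and 4.31 ± 0.535 FPKM on the standard diet and rose (limma adjusted p = 0.021).

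Of 23 carriers of conjugates and organic anions 5 rose (21.7%) and 4 fell (17.4%), or 2 (8.7%) and 7 (30.4%) after median-of-ratios scaling, against 29.7% higher and 6.84% lower, or 16.8% and 15.2%, of all genes. Abcc3, an exporter of glucuronides, averaged 4.91 ± 1.42 FPKM on adenine and 1.35 ± 0.262 FPKM on the standard diet (limma adjusted p = 0.00752), and Abcb1b, a P-glycoprotein gene, averaged 8.88 ± 0.831 FPKM on adenine and 3.35 ± 1.03 FPKM on the standard diet (limma adjusted p = 0.00815). The apical exporter Abcg2 averaged 141 ± 33.3 FPKM on adenine and 224 ± 36.8 FPKM on the standard diet and the organic anion transporter Slco1a6 averaged 57.9 ± 23.2 FPKM on adenine and 108 ± 10.3 FPKM on the standard diet, and both fell (limma adjusted p = 0.0412 and 0.0406). Of 19 regulators and Nrf2 targets 7 rose (36.8%) and 1 fell (5.26%), or 2 (10.5%) and 3 (15.8%) after scaling. The 7 were Nfe2l2 (the gene of Nrf2), Keap1, Maff, Bach1, Ahr, Cebpb and the Nrf2 target Srxn1. Of these only Maff and Ahr stayed called after scaling. Keap1, Bach1 and Cebpb did not (limma adjusted p = 0.23, 0.0863 and 0.0683). The call of Keap1 also ended without adenine 2, standard 1 or standard 3, and that of Bach1 without adenine 2. That of Cebpb ended without adenine 1, adenine 2, standard 2 or standard 3. The small Maf protein Maff averaged 7.39 ± 1.63 FPKM on adenine and 1.73 ± 0.212 FPKM on the standard diet (limma adjusted p = 0.00419) and the aryl hydrocarbon receptor Ahr averaged 8.47 ± 2.31 FPKM on adenine and 3.63 ± 0.381 FPKM on the standard diet (limma adjusted p = 0.0148). The bile acid receptor Nr1h4 averaged 27.9 ± 3.47 FPKM on adenine and 46.6 ± 12.4 FPKM on the standard diet and fell (limma adjusted p = 0.0442). Nfe2l2 and the tested Nrf2 targets of the list were singled out after their values were seen. Nfe2l2 had a log2 difference of 0.42 (limma adjusted p = 0.0174, and 0.35 after scaling), and its call ended without adenine 2, standard 1 or standard 2. Srxn1, which encodes sulfiredoxin, had one of 0.39 (limma adjusted p = 0.0342, and 0.566 after scaling), and its call ended without adenine 1, adenine 2, standard 1, standard 2 or standard 3. The other tested targets of this list, Nqo1, Hmox1 and Txnrd1, did not pass (limma adjusted p = 0.504, 0.297 and 0.11), though Hmox1 was called without standard 3 (0.0383). Genes of the glutathione list were not counted here. Of that list Gsr and G6pdx rose (log2 difference 0.55 and 0.46, limma adjusted p = 0.0202 and 0.0134, and 0.274 and 0.117 after scaling). Gclc and Gclm did not pass (limma adjusted p = 0.542 and 0.298). Nqo1 averaged 34.0 ± 8.18 FPKM on adenine and 37.5 ± 4.23 FPKM on the standard diet, and Hmox1 16.6 ± 2.28 FPKM on adenine and 13.2 ± 5.57 FPKM on the standard diet. Slc7a11 and Gpx2 averaged under 0.5 FPKM and were not tested.

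Of the named genes in these lists and the further conjugating enzymes, 20 in all, the calls of Abcb1b, Abcc3, Dpep2, Maff and Pgm1 held without each library. Dpep2 was tested only because of its adenine level, and the filter was not redone when a library was left out. The other 15 were lost without adenine 2, along with 6, 1, 11, 14 and 13 lost without adenine 1, adenine 3 and standard 1, 2 and 3, in that order. Without adenine 2 the limma adjusted p was 0.0843 for Nat8, 0.0962 for Acy1, 0.0901 for Ggt5, 0.09 for Gusb, 0.0719 for Slc13a1, 0.125 for Slc26a1, 0.0535 for Bpnt1 and 0.066 for Tpst1. It was 0.12 for Abcg2, 0.101 for Slco1a6, 0.0618 for Ahr and 0.0921 for Nr1h4, which was also the 1 lost without adenine 3 (0.0663).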

How the data were processed

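Per the labels' protocols, total RNA from whole kidneys was used for 100 bp paired-end libraries (1 μg, random hexamers). Tools listed in the submitters' processing notes are TopHat, Cufflinks 2.1.1 and bcl2fastq 2.0, with builds GRCm38 and mm10; the annotation and TopHat's release were not given in the sources used here. FPKM values per gene were what the authors deposited; a second table, with 6 per-sample columns of samples outside the list, was not used. Steps of low FPKM came within 0.15 of whole fragments for 65.4% to 74.1% of values, so fragments were not recovered and no count test was run; depths from these steps are approximate and cover counting error only.

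limma 3.58.1 (R 4.3.3; intensity trend, two-sided) was fitted on log2(FPKM + 1) for the 15431 genes that averaged 0.5 FPKM or more, with Benjamini-Hochberg adjustment over all of them and a threshold of 0.05. The scale understates changes of low genes. The code was tested on simulated data. Median-of-ratios factors were computed from the FPKM over all tested genes. Alternatives were the pseudocount, the filter, scaling, the variance prior, a replicate block and the omission of each library.

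Deviations from group means correlated at 0.257, 0.143 and 0.181 between libraries of the same number and at -0.187 to 0.0376 otherwise. The replicate number was therefore also tried as a block, while the main fit had diet only and did not pair libraries. A pairing by number rests on the data, since no label states it, and few matchings cannot establish it. Values with the block are given where they change a call.

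The members, lists and rules were chosen with earlier results of these data known. Named were all members past the threshold, the most abundant member of each family, the 5 largest differences not past it, opposite neighbours in a cluster, and up to 2 rises and 2 falls of each further list; other tested members are named to account for all. Shared sequence was read from GENCODE M21 transcripts in windows of 100 bases; all 62 members are annotated there as protein coding, 44 with the start and end of the table.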

Additional observations from a re-analysis of the deposited data

How the results depend on the processing

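Precision is limited by 3 libraries per diet, and values under about 0.0867 FPKM are not told from 0. Of the 20 member calls, 20 held with each smaller pseudocount and 18 after median-of-ratios scaling. Member counts that moved by over 1.5 times were those changed with no filter (13) and with quantile normalization (13), those higher with a mean of at least 5 FPKM, quantile normalization, or block and median-of-ratios scaling together (4 each), and those lower with no filter (7) or no variance trend (8). Over all genes, quantile normalization gave 2140 higher and 2237 lower, median-of-ratios scaling 2598 higher and 2344 lower, and that scaling with the block 2673 higher and 2589 lower. The cause of these differences was not tested beyond the change of setting itself. No filter ended the calls of Gstm1, Gstp1, Gstt2, Sult1d1, Ugt1a7c, Ugt1a6a and Ugt3a2, and the first 6 of these also ended with no variance trend. Rescaling without the 50 most abundant genes ended Gstp1 and Ugt1a6a, and Ugt1a1 ended with the block and median-of-ratios scaling together. Each smaller pseudocount added Ugt1a2. Of the 20 calls named in the further lists, 8 ended with no filter, 6 with quantile normalization, 3 with median-of-ratios scaling and 2 with no variance trend. A mean of 5 FPKM left no value for Gstm6, Gstp2, Sult4a1 and Ugt1a1.

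Leaving out 1 library gave 6 to 25 members changed, 3 to 9 higher and 3 to 16 lower, and 2053 to 7078 genes changed, 1833 to 5480 higher and 220 to 1598 lower. Of the 20 member calls, 13, 7 and 20 held without adenine 1, 2 and 3, and 7, 6 and 7 without standard 1, 2 and 3.

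With the replicate block 20 members and 5957 genes were called; it ended the calls of Gstm1, Gstp1 and Gstt2, added Gsta3, Gstm5 and Ugt8a, and ended that of Ggt5 among the other named genes. Without scaling it changed no other call among the 40 tested members and those named genes.

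Signs turned for genes that did not pass. With 1 library left out, the log2 difference of Gsta2 ran from -0.23 to 0.090 (above 0 without standard 3), that of Gstt1 from -0.084 to 0.13 (below 0 without adenine 3 or standard 1) and that of Sult2b1 from -0.39 to 0.44 (below 0 without adenine 1 or standard 3). Gstt1 was at -0.26 with median-of-ratios scaling, with or without the block, and -0.012 when rescaled without the 50 most abundant genes. Sult2b1 was at -0.17 with median-of-ratios scaling, with or without the block, -0.46 with quantile normalization and -0.016 when rescaled without the 50 most abundant genes.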

Other observations

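Other conjugating enzymes, which add methyl, acetyl or amino acid groups, were also more often lower on the adenine diet. Of 18 tested genes 9 fell (50%, against 6.84% of all genes) and 1 rose (5.56%, against 29.7%), with the same counts after median-of-ratios scaling (against 15.2% and 16.8%) and a median log2 difference of -0.63, beside 0.25 for all genes. Acsm2 and Acsm1 activate carboxylic acids, a first step of their coupling to glycine. Acsm2 was at 244, 557 and 913 FPKM in adenine 1, 2 and 3, against 1409, 1642 and 1680 FPKM in standard 1, 2 and 3 (log2 difference -1.65, limma adjusted p = 0.0336). Acsm1 was at 17.5, 38.3 and 50.7 FPKM on adenine, against 72.7, 83.7 and 91.8 FPKM on the standard diet (log2 difference -1.31, limma adjusted p = 0.0322). Both calls ended without adenine 2 (limma adjusted p = 0.0903 and 0.0745) and without standard 1 (0.0818 and 0.075), standard 2 (0.0947 and 0.0893) or standard 3 (0.0984 and 0.0987). They also ended with no filter on low values (0.0629 and 0.0558), and that of Acsm2 with quantile normalization (0.0755). The rise was that of Nnmt, the nicotinamide methyltransferase, at 6.46, 5.42 and 3.77 FPKM on adenine, against 2.42, 1.21 and 1.05 FPKM on the standard diet (log2 difference 1.29, limma adjusted p = 0.0135; 0.0563 without adenine 2 and 0.0515 without standard 2).

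The glycine transferase Glyat belongs to the same list and is already among its tested genes. It was chosen for mention after its values were seen, and its own test result is not given. Glyat was at 87.7, 131 and 196 FPKM on adenine and 261, 302 and 375 FPKM on the standard diet. In Acsm1, Acsm2 and Glyat alike adenine 1 was the lowest library and adenine 3 the nearest to the standard kidneys. The summed markers of proximal tubule, thick ascending limb, distal tubule and collecting duct, and liver also increased from adenine 1 to adenine 3. The part of the cell types in these differences was not tested.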
